A study of Mus musculus with 16 samples.

Results

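The comparison set mouse blastocysts treated with 20 µM U0126 against control blastocysts, titled WT, for which the labels name no treatment, and followed every probe set of the array rather than preset markers alone. It used 6 of the 12 samples of the series, 3 with U0126 and 3 controls, chosen by their titles and read on 8 of 16 Affymetrix arrays. In replicate 1, RNA amplified by a small-sample protocol was read on the 430A and 430B pair of arrays, joined here as 1 sample. Replicates 2 and 3 were labelled by a two-cycle protocol and read on the combined 430 2.0 array. The remaining 6 samples were blastocysts given 20 µM SB203580, used as an inhibitor of p38 kinases, or 25 µM SP600125, used as an inhibitor of JNK, 3 each. The labels give neither strain nor embryo age nor the length of treatment, and do not say whether controls received a solvent. Nor is it stated that replicates came from separate cultures or litters, so each p-value reflects only how these samples scatter, which may be technical.

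U0126 blocks MEK1 and MEK2, the kinases that activate ERK. In many cell types active ERK turns on genes of its own inhibitors, among them dual-specificity phosphatases and Sprouty proteins, so these messages fall when MEK is blocked. In the mouse blastocyst, FGF4 from epiblast cells acts through ERK on neighbouring cells of the inner cell mass and directs them to primitive endoderm. The outer trophectoderm is an epithelium that pumps the blastocyst cavity open and later starts implantation.

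The deposited signal of an array is on a linear scale with a trimmed mean of 500. Changes are given as the difference in log2(signal + 12.6) between U0126 and control, fitted with limma with the array type as a block, ± standard error with 3 samples per group. A probe set was called at a Benjamini-Hochberg adjusted p under 0.05 over the 27022 probe sets tested. The median signal of U0126 replicates 2 and 3 was 77.7 and 83.0, against 61.1 and 65.7 in controls. Replicate 1 was at 132.7 with U0126 and 147.4 in control on 430A. On 430B it was at 230.9 with U0126 and 223.8 in control. In 5 equal groups of all measured probe sets from dim to bright, the median change was 0.09, 0.15, 0.15, 0.08 and 0.00. The part of this shift in the results was not tested beyond the rescaled fits given with them. In whole blastocysts, fewer cells of a type and less RNA per cell cannot be told apart.

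With U0126, 121 probe sets were called, 0.448 percent of those tested. Of these 47 were higher, or 0.174 percent, and 74 were lower, or 0.274 percent. They named 38 higher and 62 lower genes, together 100 of 12614 genes tested. As shares of genes that is 0.301 percent higher, 0.492 percent lower and 0.793 percent in all. Called or not, 7122 of the 12614 genes had a change above 0 and 5492 below 0. Counts of list members given below are to be read beside these. Each of the 121 had signals that did not overlap between the groups within either array type, as did 23.1 percent of all probe sets tested. The smallest called change was 0.49 on the log2 scale and the median size was 0.94. Over all tested probe sets, 3246 had an unadjusted p under 0.05.

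The count rests on the way the spread is modelled and on the scaling. Without an intensity trend in the variance, 2 probe sets passed, and Klk7 was the only one of them that names 1 gene. When array medians were equalised within an array type, 31 were higher and 173 lower, so that 15.2 percent of calls were rises in place of 38.8 percent. That scaling moved the median change of all tested genes to -0.06, from 0.05 on the deposited scale. With each of the 6 samples left out in turn, 21 of the 100 genes passed every time, 6 higher and 15 lower. The 6 were Cyp1a1, Klk7, Ndrg4, Eva1b, Fgf4 and B4galt5. The 15 were Dusp6, Dusp4, Tspan1, Upk1b, Pgam2, Cracdl, Shroom3, Csta1, Ypel2, Plet1, Odc1, Ddah1, Lrr1, Trim43a and Srsf2. Plet1, a surface protein gene known from trophectoderm lineages, is outside the rule for named genes and is named here to complete the count.

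**Figure D1:**
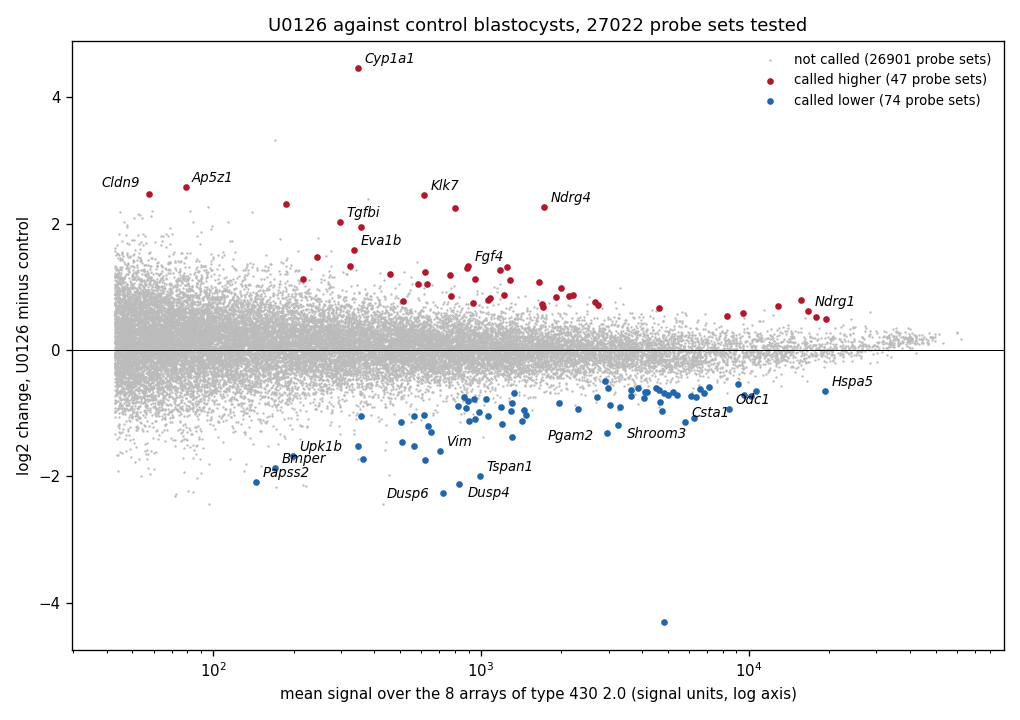
Fitted log2 change of U0126 minus control (vertical axis) against mean signal on the 430 2.0 arrays (horizontal log axis) for the 27022 probe sets tested, with the 47 called higher in red and the 74 called lower in blue. The highest red point is Cyp1a1 at 4.46, and the single blue point at -4.31 is the probe set that the annotation assigns to more than 1 gene.

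Klk7, which encodes a secreted serine protease best known from the shedding of skin cells, rose most steadily. Its signals were 1420, 1298 and 1140 with U0126, against 182, 285 and 212 in controls. All 3 treated samples lay above every control, and the change was 2.46 ± 0.21 (adjusted p = 2.98e-05). It was called in each of 15 processing alternatives, where its change ran from 2.25 to 2.53.

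Ndrg4, a member of the N-myc downstream regulated family known from heart and brain, had signals of 2598, 4124 and 5027 with U0126, against 717, 911 and 707 in controls. The lowest treated sample was well above the highest control (2.27 ± 0.28, adjusted p = 0.00118). Its second tested probe set was also called, at 2.24 ± 0.32. Ndrg1 of the same family, a gene induced by low oxygen in many cells, had much brighter signals, 11890, 21550 and 21819 with U0126, against 6890, 14739 and 15038 in controls. The groups did not overlap within an array type, and the rise was 0.62 ± 0.11.

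Tgfbi, which encodes a secreted matrix protein that binds collagens and integrins, had signals of 350, 660 and 717 with U0126, against 95.1, 173 and 120 in controls. It rose by 2.03 ± 0.33 (adjusted p = 0.01), and another of its 4 probe sets was called at 1.47 ± 0.29. Both of the others were above 0 without passing.

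Cldn9, a claudin of tight junctions, and Ap5z1, a subunit of an adaptor complex of late endosomes, came from very dim control signals. Cldn9 read 459, 148 and 97.1 with U0126, against 37.6, 6.5 and 37.6 in controls, and Ap5z1 read 735, 69.9 and 167 with U0126, against 78.0, 9.9 and 12.9 in controls. Some control values lay under the added constant of 12.6, so the fitted changes of 2.48 ± 0.49 and 2.58 ± 0.43 depend on it. The called probe set of Ap5z1 is of the kind that can match other transcripts, and 3 of the 4 other probe sets of the gene were above 0, none of them called. The average over the probe sets of Ap5z1 was 0.735 and not called. Against the same dim controls, its called probe set was also called higher with SB203580 (2.89 ± 0.43, adjusted p = 0.00494) and SP600125 (2.42 ± 0.43, adjusted p = 0.0116). The U0126 difference from these was -0.31 ± 0.43 and 0.16 ± 0.43, and neither passed.

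Cyp1a1, the cytochrome P450 that marks activity of the aryl hydrocarbon receptor, had signals of 963, 1385 and 1079 with U0126, against 122, 30.9 and 11.4 in controls. On each array type the treated samples lay far above the controls, 1 of which was below the added constant. Its change of 4.46 ± 0.62 was 2.86 in replicate 1 and 5.43 and 5.08 in replicates 2 and 3, and ran from 3.64 to 5.26 over the processing alternatives. With SB203580 it read 706 in replicate 1 but 30.4 in replicate 3, and with SP600125 it read 114, 87.7 and 109. Other members of the receptor's target list, Cyp1b1 (3.33 ± 0.76, adjusted p = 0.0689) and Ahrr, which encodes the receptor's repressor (2.27 ± 0.57, adjusted p = 0.10), did not overlap between groups and did not pass. Of the 7 tested members of that list, 3 were above and 4 below 0, with a median of -0.04 and only Cyp1a1 called. The lowest were Lpcat2, an acyltransferase gene (-1.27 ± 0.50), Nqo1, a quinone reductase gene (-0.27 ± 0.59), and Fosl2, an AP-1 subunit gene (-0.21 ± 0.19). The sequence of the Cyp1a1 start is shown because this message had the largest called rise, and the receptor's core motif GCGTG was searched on both strands in windows from 250 bases before to 50 after the RefSeq start. The window, chr9:57697363-57697662 on the plus strand of GRCm38.p6, has 1 match, at -54 from the start counted as 0, in capitals:
Cyp1a1: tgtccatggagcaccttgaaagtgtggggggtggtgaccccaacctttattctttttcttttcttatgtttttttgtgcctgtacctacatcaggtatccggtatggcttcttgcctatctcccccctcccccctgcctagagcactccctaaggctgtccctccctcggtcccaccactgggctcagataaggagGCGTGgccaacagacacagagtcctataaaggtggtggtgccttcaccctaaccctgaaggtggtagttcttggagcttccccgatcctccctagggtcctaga
A match is a description of letters and not a site shown to be bound.

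The remaining large rises were spread over unlike functions. Eva1b (1.58 ± 0.23) had 1884, 479 and 583 with U0126, against 668, 203 and 130 in controls. Patl2 (1.33 ± 0.22), an oocyte regulator of stored messages, and Aurkc (1.24 ± 0.21), an Aurora kinase of meiosis and early cleavage, also rose. Aurkc read 610, 1435 and 1141 with U0126, against 359, 475 and 423 in controls, and each treated sample was above the controls of its array type. Krt19, a keratin of simple epithelia, read 222, 477 and 572 with U0126, against 115, 214 and 181 in controls (1.20 ± 0.25). Genes of enzymes that rose were Lpcat1 (1.26 ± 0.26), which remodels phosphatidylcholine, Cbr3 (1.19 ± 0.23), a carbonyl reductase, Pcca (1.13 ± 0.20), a subunit of mitochondrial propionyl-CoA carboxylase, and B4galt5 (1.11 ± 0.17), a galactosyltransferase of glycolipid synthesis. Fbxl16, an F-box protein gene, rose by 1.12 ± 0.24 and was called in 5 of 15 processing alternatives. With a sample left out in turn, Lpcat1, Cbr3 and Fbxl16 passed in none of the 6 fits. Aurkc and Pcca passed in 2 and Patl2 in 3. The average over the probe sets of Lpcat1 was 0.51 and not called.

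**Figure D2:**
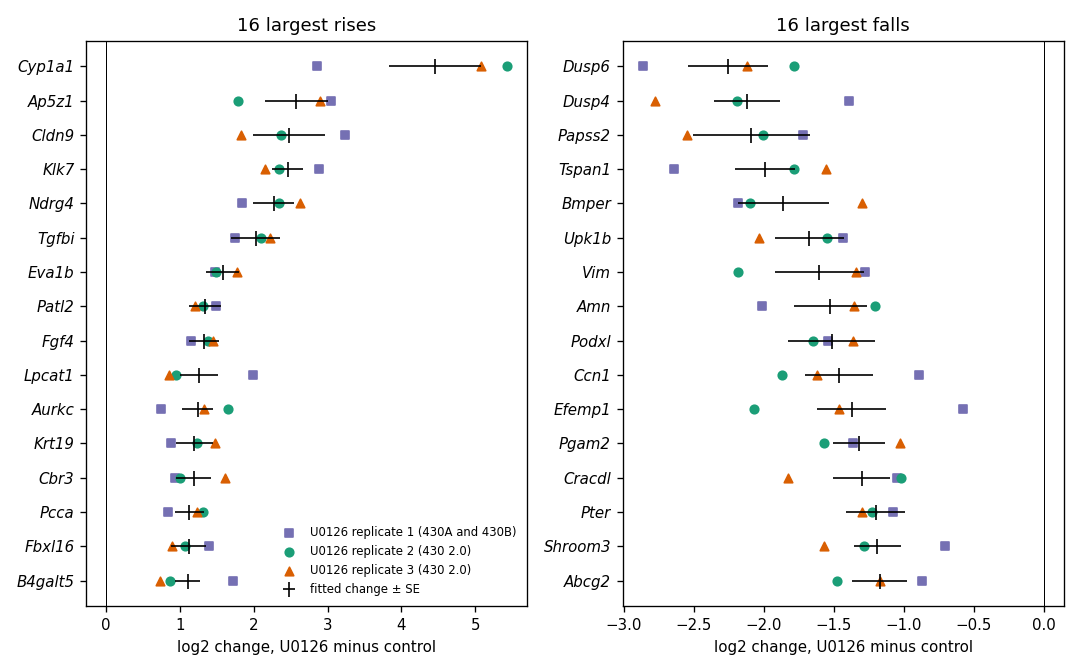
Log2 change of each U0126 replicate from the control mean on its own array type (symbols) with the fitted change ± SE (bars) for the 16 largest called rises, left, and the 16 largest called falls, right. Every symbol lies on its gene's side of 0. Replicate 1 of Cyp1a1 is at 2.86 beside 5.43 and 5.08, and replicate 1 of Efemp1 at -0.58 beside -2.07 and -1.46.

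The largest fall belonged to a probe set to which the annotation assigns more than 1 gene, so no gene is named for it. Its signals were 233, 760 and 205 with U0126, against 5862, 7766 and 7008 in controls. No treated sample came near any control, and the change was -4.31 ± 0.33 (adjusted p = 1.1e-05). It also lay below SB203580 (-3.70 ± 0.33) and SP600125 (-3.32 ± 0.33). In all, 5 called probe sets named several genes and 3 named none in the annotation used here.

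Igf2, the paternally expressed growth factor gene, fell as well. Its signals were 335, 609 and 513 with U0126, against 949, 1122 and 1083 in controls, with no overlap (-1.13 ± 0.19, adjusted p = 0.0114). It was the only called member among 22 tested imprinted genes, whose median was 0.26, with 16 above and 6 below 0. Lists were read only through probe sets that name 1 gene. The probe set with the largest fall therefore entered no list, and whether it reads an imprinted gene was not examined. Igf2 no longer passed without U0126 replicate 3, without control replicate 1, on the 430 2.0 arrays alone or without the intensity trend.

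Several of the largest falls were genes of surface and matrix proteins. Tspan1, a tetraspanin of epithelial membranes, had 146, 380 and 447 with U0126, against 979, 1431 and 1250 in controls. The groups were far apart on each array type (-1.99 ± 0.21, adjusted p = 0.00048). Upk1b, a uroplakin of the same family that coats the urinary epithelium, had 432, 124 and 85.5 with U0126, against 1191, 378 and 400.0 in controls (-1.67 ± 0.25). Podxl, which encodes a sialylated protein of apical membranes, had 122, 170 and 211 with U0126, against 379, 635 and 494 in controls (-1.52 ± 0.31). Podxl passed in 1 of 6 fits with a sample left out in turn.

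Vim, the intermediate filament gene of mesenchymal and migrating cells, was measured by 3 probe sets, and 2 were called. The brighter of these read 86.4, 211 and 387 with U0126, against 228, 882 and 1136 in controls, a change of -1.60 ± 0.32. The dimmer read 249, 197 and 302 with U0126, against 694, 998 and 895 in controls (-1.74 ± 0.26). The groups did not overlap within an array type in either. Among secreted proteins, Bmper, a regulator that binds bone morphogenetic proteins (-1.86 ± 0.32), Efemp1, a fibulin of the extracellular matrix (-1.37 ± 0.25), and Ccn1, a matrix-associated protein and a known immediate early gene (-1.46 ± 0.24), fell. Bmper and the brighter called probe set of Vim passed in 1 of 6 fits with a sample left out in turn. Efemp1 passed in 2 and Ccn1 in 3. The average over the probe sets of Ccn1 was not called.

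Ccn1 read 178, 192 and 231 with U0126, against 342, 719 and 755 in controls. It was the only called gene of 23 tested immediate early genes, whose median was -0.04, with 11 above and 12 below 0. Fn1, the fibronectin gene, went the other way, with 3828, 3293 and 4141 in U0126 samples, against 2048, 2351 and 2455 in controls (0.71 ± 0.14). Fn1 was no longer called with equalised array medians.

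Falls of enzyme and transport genes included Papss2, an enzyme that prepares activated sulphate for transfer, with 35.7, 80.9 and 51.4 with U0126, against 146, 337 and 388 in controls (-2.09 ± 0.42). Of 19 tested genes for sulphation and glycosaminoglycans it was the only one called, and the median of the list was -0.16. Papss2 did not pass when any 1 of the 6 samples was left out. Pgam2, the muscle form of a glycolytic mutase (-1.32 ± 0.19), Pter, related to phosphotriesterases (-1.20 ± 0.21), and Abcg2, an efflux pump for drugs and porphyrins (-1.17 ± 0.20), fell too. Pter passed in 2 of the 6 fits with a sample left out and Abcg2 in 4. Shroom3, an organiser of apical actin, had 870, 1492 and 1224 with U0126, against 1430, 3500 and 3822 in controls (-1.19 ± 0.17), and Cracdl fell by 1.30 ± 0.20. The average over the probe sets of Shroom3 was not called.

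**Figure D3:**
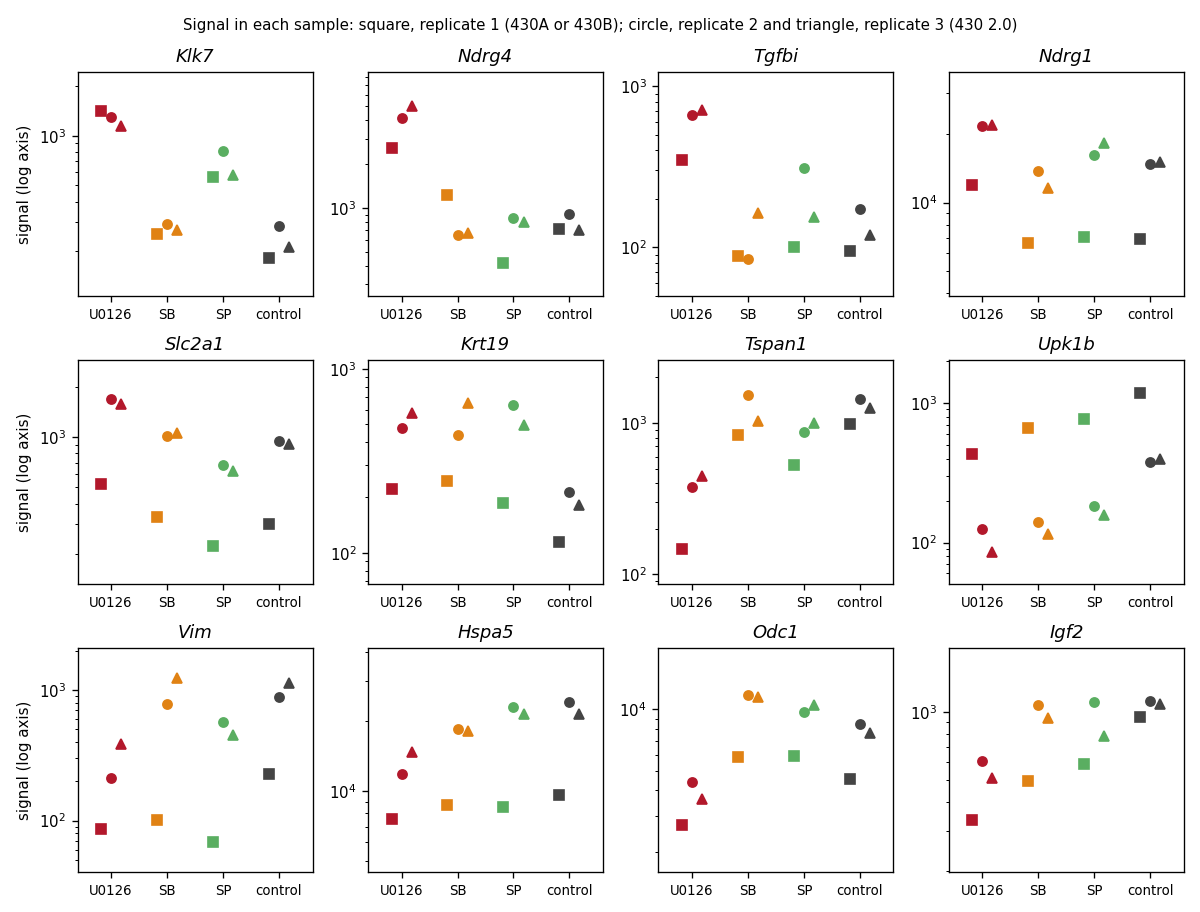
Signal (log axis) of 12 called genes in each of the 12 samples, grouped as U0126, SB203580 (SB), SP600125 (SP) and control, with squares for replicate 1 on 430A or 430B and circles and triangles for replicates 2 and 3 on 430 2.0. Symbols of different shape are compared only within an array type. In Klk7, Ndrg4 and Odc1 U0126 differs from both other inhibitors, while Krt19 is higher than control with all 3, at changes of 1.20, 1.26 and 1.18.

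Genes around the inhibited kinase were read next. Dusp6, the phosphatase that removes the activating phosphates of ERK, had 61, 267 and 209 with U0126, against 524, 1007 and 898 in controls (-2.26 ± 0.29). Dusp4, its nuclear relative, had 1721, 321 and 209 with U0126, against 4539, 1665 and 1367 in controls (-2.12 ± 0.23). Neither gene's groups overlapped within an array type. These were the 2 called members of 20 tested genes of ERK output and feedback, 16 of which were below 0, with a median of -0.28 beside 0.05 for all tested genes. Against the same controls, the median of this list was -0.11 with SB203580 and -0.21 with SP600125. The feedback inhibitor Spry4 read 55.3, 16.8 and 79.1 with U0126, against 179, 171 and 208 in controls, without passing (adjusted p = 0.0917). The Ets factor genes Etv4 (0.37 ± 0.51) and Etv5 (0.47 ± 0.19) stood on the other side of 0 and did not pass.

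The genes of the target kinases did not pass the test. Map2k1 was at 0.04 ± 0.12 (adjusted p = 0.938) and Map2k2 at 0.16 ± 0.23 (adjusted p = 0.83). Of 23 tested genes of the RAS to ERK pathway 1 was called, Rras2, a RAS-related GTPase gene, at -0.90 ± 0.18. Its signals were 493, 641 and 713 with U0126, against 699, 1510 and 1428 in controls. Gadd45g, a stress gene whose product activates a kinase upstream of p38 and JNK, was the only called member of 19 genes of those pathways. It read 618, 1040 and 748 with U0126, against 309, 479 and 350 in controls, and rose by 1.05 ± 0.20.

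Among genes of the protein-folding machinery of the endoplasmic reticulum, 3 of 23 fell. Hspa5, the main chaperone of that compartment, had 7574, 11873 and 14799 with U0126, against 9642, 24346 and 21537 in controls (-0.64 ± 0.12, adjusted p = 0.0197). The groups did not overlap within either array type, and a second, dimmer probe set was called at -1.07 ± 0.13. The third was at 0.13 and not called.

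Manf, a secreted factor induced when folding is disturbed, had 1740, 3527 and 3561 with U0126, against 2163, 6623 and 6013 in controls (-0.66 ± 0.13). Pdia6, a disulphide isomerase, had 1871, 3300 and 2972 with U0126, against 2217, 5897 and 5847 in controls (-0.68 ± 0.14). In each of these genes the gap was smaller in replicate 1 than in replicates 2 and 3. Of 23 tested members, 3 fell and none rose, and 20 were below 0. Among all 12614 tested genes, 0.492 percent were called lower and 5492 were below 0. The median of the list with U0126 was -0.28 beside 0.05 for all tested genes. Against the same controls, it was -0.22 with SB203580 and -0.02 with SP600125. For U0126 it was -0.19, -0.51 and -0.25 in replicates 1, 2 and 3, and -0.39 with equalised array medians. Creld2 (-0.66 ± 0.15, adjusted p = 0.068), Xbp1 (-0.55 ± 0.13, adjusted p = 0.077) and Dnajc3 (-0.81 ± 0.23, adjusted p = 0.155) were the largest of those that did not pass. With a sample left out in turn, the brighter called probe set of Hspa5 passed in 1 of 6 fits. Manf passed in 2 and Pdia6 in 1. None of these 3 probe sets passed when only U0126 and control samples were fitted. The dimmer called probe set of Hspa5 was not followed in these fits.

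The start regions of Hspa5 and Pdia6 are shown because both messages fell and both hold the endoplasmic reticulum stress element, the pair CCAAT and CCACG in 1 orientation with 9 bases between them. The motif was searched on both strands after these falls were known. It occurred in 2 of 53 called lower genes with a window, in 0 of 29 called higher genes and in 16 of 10196 tested genes (0.157 percent), or 0.119 percent of 32851 windows. The fixed letters are in capitals, in windows chr2:34771840-34772139 and chr12:17266339-17266638, each on the plus strand of GRCm38.p6, with the matches at -65 and -98 from the starts:
Hspa5: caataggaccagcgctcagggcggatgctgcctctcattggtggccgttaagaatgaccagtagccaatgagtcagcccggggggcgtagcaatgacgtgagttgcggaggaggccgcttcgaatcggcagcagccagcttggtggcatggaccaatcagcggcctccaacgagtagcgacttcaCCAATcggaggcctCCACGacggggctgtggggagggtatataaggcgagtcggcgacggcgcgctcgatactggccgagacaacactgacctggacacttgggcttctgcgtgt
Pdia6: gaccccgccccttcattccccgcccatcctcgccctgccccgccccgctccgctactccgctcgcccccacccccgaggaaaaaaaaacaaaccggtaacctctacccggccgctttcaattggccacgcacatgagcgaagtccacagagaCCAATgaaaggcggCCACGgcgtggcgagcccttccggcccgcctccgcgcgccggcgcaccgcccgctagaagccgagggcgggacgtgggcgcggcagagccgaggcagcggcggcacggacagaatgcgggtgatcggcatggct
Other motifs were counted in the same windows, also on both strands and with no test. GCGTG lay in 51.7 percent of 29 called higher, 49.1 percent of 53 called lower and 54.7 percent of 10196 tested genes with a window. The Ets letters CGGAAG lay in 10.3 percent of called higher, 18.9 percent of called lower and 33.4 percent of tested genes. TGANTCA of AP-1 lay in 3.45, 15.1 and 6.43 percent of the same sets, TGACGTCA of CRE in 0, 5.66 and 3.41 percent, and the E-box CACGTG in 17.2, 15.1 and 11.5 percent. No motif of the search contains another. Over all windows these motifs lay in 32.4, 16.9, 7.81, 1.79 and 7.15 percent.

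Of 19 tested genes of the hypoxia response, 3 rose and none fell, beside 0.301 percent higher and 0.492 percent lower of all tested genes. The list's median was 0.07 beside 0.05 for all tested genes. The risers were Ndrg1, described above, Epas1, which encodes the oxygen-regulated factor HIF-2 alpha (0.58 ± 0.10), and Slc2a1, the main glucose transporter of many tissues (0.80 ± 0.16). Epas1 read 32365, 10626 and 11580 with U0126, against 20542, 7689 and 7515 in controls. Slc2a1 read 523, 1690 and 1574 with U0126, against 302, 944 and 903 in controls. The groups were apart on each array type for both. Slc2a1 passed in none of the 6 fits with a sample left out and not with equalised array medians, and the other tested probe set of Epas1 was at -0.18 and not called.

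The brightest rises outside these groups had changes of 0.49 to 0.85. Gpx4, a peroxidase that repairs oxidised membrane lipids, had 8036, 21570 and 22575 with U0126, against 5093, 16018 and 16225 in controls (0.52 ± 0.09). Lrpap1, a chaperone of the lipoprotein receptor family (0.49 ± 0.09), Cstb, an inhibitor of lysosomal proteases (0.54 ± 0.11), Slc30a1, a zinc exporter (0.66 ± 0.11), Atp6ap1, an accessory subunit of the proton pump (0.76 ± 0.16), and Aldh2, a mitochondrial aldehyde dehydrogenase (0.85 ± 0.15), also rose. Equalising array medians ended the calls of Lrpap1, Cstb and Atp6ap1. With a sample left out in turn, Gpx4 passed in 5 of 6 fits, Slc30a1 in 4 and Lrpap1 in 3. Cstb, Atp6ap1 and Aldh2 each passed in 1. The average over the probe sets of Aldh2 was 0.36 and not called.

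Among the brightest falls, Odc1, the first enzyme of polyamine synthesis, had 2698, 4395 and 3610 with U0126, against 4545, 8519 and 7633 in controls (-0.93 ± 0.11, adjusted p = 0.00118). Both of its other probe sets were close to 0, at -0.08 and -0.11. Csta1, a cytosolic inhibitor of cysteine proteases, had 7638, 3476 and 4475 with U0126, against 15132, 9059 and 9179 in controls (-1.13 ± 0.13). Trim43a, a tripartite motif gene active before implantation, had 3606, 7425 and 6862 with U0126, against 5660, 10833 and 11754 in controls (-0.66 ± 0.09). These groups did not overlap within an array type. Further bright falls were Pa2g4, a growth-regulated RNA-binding protein (-0.72 ± 0.14), Fbp2, a fructose bisphosphatase (-0.53 ± 0.10), Lrr1, an adaptor of a ubiquitin ligase (-0.74 ± 0.11), and the RNA-binding protein genes Hnrnpdl (-0.68 ± 0.12) and Srsf2 (-0.62 ± 0.10). All 3 other probe sets of Srsf2 lay within 0.07 of 0. Of the 6 other probe sets of Hnrnpdl 2 had the opposite sign, and the average over its probe sets changed by -0.046 and was not called.

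By lineage, the 15 tested primitive endoderm markers were all below 0, with a median of -0.55, and Amn (-1.53 ± 0.26) and Gata6 (-0.60 ± 0.12) were called. A low median was not particular to U0126. Against the same controls, the median of these 15 markers was -0.52 with SB203580 and -1.33 with SP600125. Amn, a partner of cubilin in absorptive epithelia, had 234, 433 and 389 with U0126, against 980, 995 and 1038 in controls. Gata6, a transcription factor of that lineage, had 2215, 2744 and 3173 with U0126, against 2720, 4895 and 5088 in controls. The summed signal of these markers was 22011, 34332 and 43460 with U0126, against 31131, 53019 and 50610 in controls, lower on each array type without overlap. With a sample left out in turn, Amn passed in 3 of 6 fits and Gata6 in 2.

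Of 10 inner cell mass markers, Fgf4 and Sox2 rose and 7 were above 0, with a median of 0.42 and 0.80, 0.28 and 0.08 in replicates 1, 2 and 3. Fgf4, the growth factor of the epiblast, had 996, 1765 and 1843 with U0126, against 441, 693 and 643 in controls (1.33 ± 0.20), and 3 of its 4 probe sets were called. Sox2, a pluripotency factor, had 1004, 2930 and 3384 with U0126, against 448, 1846 and 1922 in controls (0.87 ± 0.14). The pluripotency factor Nanog stood at -0.34 ± 0.20 and did not pass (adjusted p = 0.525).

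Trophectoderm genes moved in both directions. Of 33 structural genes, Krt19 rose and Tspan1, Upk1b and Atp1b1 fell, with a median of 0.04 that turned to -0.07 with equalised array medians. Atp1b1, the beta subunit of the sodium pump that drives cavity formation, had 3348, 5668 and 4645 with U0126, against 5871, 7530 and 6834 in controls (-0.59 ± 0.11). Of 5 tested probe sets of Atp1b1, 3 were called lower and 1 stood at 0.25 without passing. Krt19 passed in none of the 6 fits with a sample left out, and not with equalised medians. None of 20 trophectoderm transcription factors was called, and Cdx2, which specifies this lineage, stood at -0.09 ± 0.16. The summed signal of 12 trophectoderm markers was 50956, 120100 and 125781 with U0126, against 51987, 118867 and 124958 in controls, and overlapped between groups on the 430 2.0 arrays.

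**Figure D4:**
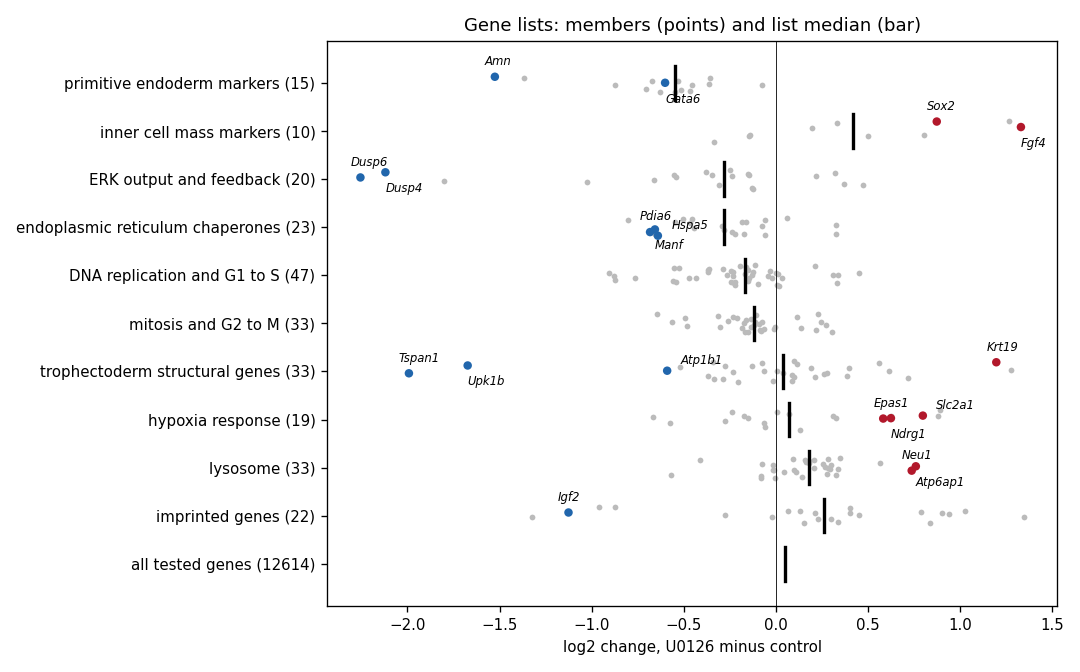
Log2 change of U0126 minus control for the tested members of 10 gene lists (points, coloured and named where called) with each list's median (black bar) and the median of all 12614 tested genes in the last row. All 15 primitive endoderm markers and 20 of 23 endoplasmic reticulum chaperones lie below 0, at medians of -0.55 and -0.28.

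None of 47 tested DNA replication genes was called, with 38 below 0 and a median of -0.17. None of 33 mitosis genes was called, with 26 below 0 and a median of -0.12. Of 26 nucleotide synthesis genes 1 fell, Rrm1, a subunit of ribonucleotide reductase (-0.63 ± 0.11), with a median of -0.14. Cholesterol synthesis had 1 fall in 20 genes, Nsdhl (-0.74 ± 0.12), and glycolysis 1 rise in 20, Slc2a1. Lysosome genes had 2 rises in 33, Atp6ap1 and Neu1, a sialidase (0.74 ± 0.16), with a median of 0.18 and 24 above 0. Over the 59 lists, 31 held a called gene and 10 held 2 or more, and 35 of the 100 called genes were on a list.

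Markers of cells that could cling to embryos were also read. Signals were summed over all measured markers of a list. Of 12 cumulus and granulosa cell markers 6 passed the signal filter and none was called, with sums of 9437, 22435 and 21665 with U0126, against 9361, 16188 and 21024 in controls, higher with U0126 on each array type without overlap. Uterine and oviduct epithelium markers (6 of 14) summed to 2680, 2804 and 3420 with U0126, against 3399, 2994 and 2938 in controls. Blood and immune markers (5 of 14) summed to 844, 1262 and 1760 with U0126, against 1063, 1275 and 1275 in controls. The receptor gene Fshr of granulosa cells and Ptprc of blood cells did not pass the signal filter. None of these 3 lists held a called gene, and their part in the results above was not tested.

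U0126 was also tested directly against each other inhibitor. These differences use no control values, though the spread is estimated over all 4 groups, controls included. U0126 differed from SB203580 in 371 probe sets, 1.37 percent of those tested, and from SP600125 in 791, or 2.93 percent. With only the groups compared in the fit, these counts were 177 and 410. Of the 100 called genes, 39 also differed from both other inhibitors at their called probe set, 16 higher and 23 lower, and 24 differed from neither. These tests share the U0126 samples with the comparison that chose the genes, so the counts describe the genes and are not separate support.

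Klk7 lay 2.18 ± 0.21 above SB203580 and 0.99 ± 0.21 above SP600125. It also rose with SP600125 against control, by 1.47 ± 0.21 (adjusted p = 0.00265), with signals of 561, 803 and 582. Ndrg4 lay 2.19 ± 0.28 and 2.50 ± 0.28 above them. Fgf4, Sox2, Tgfbi, Ndrg1, Gpx4 and Cyp1a1 also lay above both. On the lower side were Tspan1 (-1.85 ± 0.21 from SB203580 and -1.36 ± 0.21 from SP600125) and Odc1 (-1.40 ± 0.11 and -1.27 ± 0.11). Dusp6, Shroom3, Ypel2, Ddah1, an enzyme that breaks down methylated arginines, and Trim43a were likewise below both. Hspa5 was below both at its dimmer called probe set (-0.74 ± 0.13 and -0.90 ± 0.13) and below SP600125 at the brighter. Dusp4 was below SB203580 (-1.57 ± 0.23), while its difference from SP600125 was -0.71 ± 0.23 and did not pass. It was also called lower with SP600125 against control (-1.41 ± 0.23, adjusted p = 0.00697).

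Other called genes had like changes with all 3 inhibitors, each set against the same 3 controls. Krt19 changed by 1.20 with U0126, 1.26 with SB203580 and 1.18 with SP600125, and the U0126 difference from these was -0.07 ± 0.25 and 0.01 ± 0.25. Amn changed by -1.53, -1.80 and -1.60, Csta1 by -1.13, -1.04 and -0.81, Nsdhl by -0.74, -0.82 and -0.60, and Bmper by -1.86, -1.38 and -1.86 in the same order. The 3 comparisons share their control samples and are given side by side only.

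Replicate 1, on other arrays and another labelling protocol, gave a reading that can be held apart. On the 430 2.0 arrays alone, 56 probe sets were called, 19 higher and 37 lower. In replicate 1, 52 of these had the same direction, or 92.9 percent, beside 53.6 percent of all probe sets tested. Their median size was 1.29 on the 430 2.0 arrays and 0.81 in replicate 1. The 4 exceptions were Birc6, Pdrg1, Gm7969 and a probe set without a gene name, all named after their values were seen. Of the 56, 45 were also among the 121. Among the 100 called genes, 62 had further tested probe sets, and 110 of these 129 had the sign of the called one (85.3 percent).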

How the data were processed

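The authors deposited linear signal intensity values, 1 per probe set, with no scaling step stated in the labels. In the values themselves each array has a mean of 500 to the nearest whole number with 2 percent trimmed from each end, as a global scaling gives. The software that made them is not given in the sources used here. Both arrays of replicate 1 were joined into 1 sample. No sequencing depth applies, and the number of arrays limits precision.

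Values were taken as log2(signal + 12.6), the constant being the 20th percentile of 430 2.0 signals. Probe sets with a mean of at least 42.9 on the 430 2.0 arrays were kept (the 40th percentile), 27022 of 45037. limma 3.58.1 in R 4.3.3 fitted 4 groups of 3 samples with array type as a block, with an intensity trend in eBayes, 7 residual degrees of freedom and Benjamini-Hochberg adjustment over all tested probe sets. Every adjusted p in the text is from this fit unless another is named. A gene with several probe sets is represented by its brightest called one, or its brightest one. Of 45037 probe sets, 34945 named 1 gene in the platform annotation, 932 several and 9160 none. Promoter windows are from RefSeq.

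Genes were named from those picked by a rule: the 16 largest called rises and falls with 1 direction in all replicates, the 10 brightest called genes each way, up to 4 called members of each list (up to 2 members where none was called), up to 8 genes each way called against control and both other inhibitors, the target kinases and defining cell markers. Ahrr, Cdx2, Creld2, Cyp1b1, Dnajc3, Etv4, Etv5, Fosl2, Lpcat2, Nanog, Nqo1, Spry4 and Xbp1 were named outside it, after their values were seen. Many uncalled list members that the rule picked, such as Dnmt3b, Esrrb and Mcm5, are left out of the sections above. So is the called gene Amot (-0.64 ± 0.13). Members and lists were chosen with earlier results of these data known. Python 3.11.15, pandas 2.3.3 and matplotlib 3.10.9 drew the figures. Alternatives changed the constant, filter, scaling, samples, variance model and gene summary.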

Additional observations from a re-analysis of the deposited data

How the results depend on the processing

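The number of probe sets called between U0126 and control, 121, was most sensitive to the variance model and the samples fitted. It was 2 without an intensity trend (1 higher, 1 lower), 60 when only U0126 and control samples were fitted (25 higher, 35 lower), 56 on the 430 2.0 arrays alone (19 higher, 37 lower), 187 with the filter at the 60th percentile (79 higher) and 204 with median scaling (31 higher, 173 lower). Leaving out 1 sample gave 53 to 118, with 16 to 41 higher and 34 to 77 lower, and the lowest count was without U0126 replicate 2. The other settings gave 92 to 148. The difference from SB203580 (371) became 177, 197 and 36 with only the groups compared, the 430 2.0 arrays alone and no trend, and 160 to 321 with a sample left out. The difference from SP600125 (791) became 410, 345 and 130 under the same settings, and 470 to 715 with a sample left out. On the 430 2.0 arrays alone (56), no constant gave 36, no filter 37, the filter at the 60th percentile 93, median scaling 107, only the groups compared 19 and no trend 0 in limma, where 3126 probe sets had an unadjusted p under 0.05 with the trend. Leaving out a sample there gave 12 (without control replicate 2) to 97 (without U0126 replicate 2), in fits where 1 group holds a lone sample that is assumed to vary like the other groups. A replicate block gave 148 over all arrays, with all 121 kept, 418 and 916 against SB203580 and SP600125, and 171 on the 430 2.0 arrays. On the 430 2.0 arrays, the differences of replicate 2 from replicate 3 in U0126 correlated with those in control, SB203580 and SP600125 at 0.0183, 0.0286 and 0.0423. These values leave out replicate 1 and pool all tested probe sets. They cannot decide whether same-numbered samples are paired, and the replicate block raised each of the counts above. Saal1, a called gene outside the naming rule at 0.73, stood at -0.0815 when probe sets were averaged per gene, the 1 reversal among 100 called genes. Averages per gene called 100 genes, 62 of them shared. The cause of these changes was not tested. Signal limits the values of dim probe sets, since differences under the added constant are compressed.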
